A study of Mus musculus with 18 samples.

Results

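The genes described here make fatty acids, assemble them into triglyceride, coat the droplets that store it and release fatty acids again, in livers of 2 mouse models. A list of 45 symbols was followed, and a gene was measured by the probe set with the highest mean among those that the platform annotation ties to that symbol alone. By this rule 42 of the 45 were measured, among 17097 genes in all. Srebf1, Agpat2 and Cidec were not analysed here. The study profiled liver RNA of female mice aged 6 to 8 weeks on 18 Affymetrix GeneAtlas MG-430 PM arrays, in 2 settings that were chosen because they raise transintestinal cholesterol excretion, a route by which cholesterol leaves the body through the intestinal wall rather than in bile. The first model compared NPC1L1-Liver-Transgenic mice, whose livers carry an NPC1L1 transgene (n = 5), with wild-type mice (n = 5), both C57BL/6, as the chronic setting. The second compared mice treated with an antisense oligonucleotide (ASO) targeting ACAT2 (n = 4) with mice treated with a non-targeting control ASO (n = 4), both C57BL/6N, as the acute setting. All 8 samples of the second model therefore came from mice that received an oligonucleotide. NPC1L1 is a sterol uptake protein, and ACAT2 is the enzyme that esterifies cholesterol in hepatocytes. The labels give neither the promoter nor the species of the transgene, neither the dose nor the length of ASO treatment, and do not say whether the samples of a group were separate animals, so the error behind each p-value is the spread among these arrays, part of which may be technical.

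Hepatocytes build fatty acids from acetyl-CoA that citrate carries out of the mitochondrion: ATP citrate lyase releases it, acetyl-CoA carboxylase converts it to malonyl-CoA, and fatty acid synthase joins these units into a chain that elongases and desaturases then modify. Acyltransferases and phosphatidate phosphatases attach the chains to glycerol to give triglyceride, which buds from the endoplasmic reticulum as a droplet coated with perilipins and related proteins. Lipases at the droplet surface free the fatty acids again, under the control of activator and inhibitor proteins. In the liver these genes are known to respond to insulin, carbohydrate and sterols through the transcription factors SREBP-1c, ChREBP and LXR.

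All levels below are log2 values as deposited, a change is the difference of 2 group means on that scale, and each SE is limma's moderated standard error. The threshold for a call was an adjusted p under 0.05 (Benjamini-Hochberg over all 17097 genes). Markers of hepatocytes averaged between 12.4 and 12.7 on the 10 arrays of the transgenic model and between 12.6 and 12.8 on the 8 arrays of the ASO model, near the highest values of an array, which lay between 13.6 and 13.7. The mouse Npc1l1 probe set read between 3.61 and 3.75 in transgenic livers and between 3.64 and 4.16 in wild-type livers, and since the species of the transgene is not given it does not check that label. Knockdown by the ASO was not checked, since its target transcript was not analysed here. Across all genes, 3 arrays stood farthest from their own groups, namely wild type 2, control ASO 4 and ACAT2 ASO 1, with median correlations of 0.987, 0.988 and 0.992 to the other arrays of their group, against 0.994 to 0.996 for the other 15. The same 3 arrays held the highest macrophage marker level of their groups. Counts of members that open an account are also given without them.

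Promoter sequences are shown for Elovl2, Bscl2 and G0s2, the members with the smallest adjusted p in the transgenic comparison, in the ASO comparison and, after Bscl2, in the difference between the models. They are 250 bases upstream of the first listed start site of each gene, on the gene's strand, from RefSeq (mouse build GRCm38.p6): chr13:41220404-41220653 (minus strand) for Elovl2, chr19:8837217-8837466 (plus strand) for Bscl2 and chr1:193273189-193273438 (minus strand) for G0s2. Capitals mark the GC box GGGCGG in Elovl2, its reverse complement CCGCCC in G0s2, and ATTGG, the reverse complement of the NF-Y box CCAAT, in Bscl2.
Elovl2: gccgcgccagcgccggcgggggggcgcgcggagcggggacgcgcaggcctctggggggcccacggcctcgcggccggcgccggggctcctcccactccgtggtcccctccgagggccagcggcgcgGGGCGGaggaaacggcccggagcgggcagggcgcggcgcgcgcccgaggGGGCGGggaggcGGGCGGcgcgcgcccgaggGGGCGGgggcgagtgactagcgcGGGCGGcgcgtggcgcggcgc
Bscl2: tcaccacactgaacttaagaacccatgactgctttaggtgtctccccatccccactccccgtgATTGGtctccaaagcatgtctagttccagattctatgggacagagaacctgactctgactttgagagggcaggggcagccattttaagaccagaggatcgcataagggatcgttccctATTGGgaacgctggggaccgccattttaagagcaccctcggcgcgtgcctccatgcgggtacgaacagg
G0s2: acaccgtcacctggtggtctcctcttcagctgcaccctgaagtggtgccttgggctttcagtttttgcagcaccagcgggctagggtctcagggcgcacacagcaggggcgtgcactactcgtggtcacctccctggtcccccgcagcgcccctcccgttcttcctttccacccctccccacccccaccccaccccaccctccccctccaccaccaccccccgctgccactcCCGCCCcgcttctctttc

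The Elovl2 window holds 5 GC boxes, the G0s2 window 1 GC box at -18 to -13 from the start site, and the Bscl2 window 2 NF-Y boxes. Of the 42 measured members, 36 had an entry in the promoter table, with 49 promoters of 250 bases before and 50 after a start site. The search covered both strands for 4 motifs of which none contains another. The GC box was found in 28 of the 49 (57.1%, against 35.7% of all 32851 promoters), the NF-Y box in 20 (40.8%, against 37.4%), the E-box CACGTG in 7 (14.3%, against 7.15%) and the sterol response element TCACNCCAC in 1 (2.04%, against 1.24%). The single sterol response element lay at -136 to -128, counted from a start site of Mlxipl. These are matches of letters and say nothing about binding.

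In transgenic livers the members with the largest differences were G0s2, an inhibitor protein of adipose triglyceride lipase, at 2.03 times its wild-type level, Fitm1, a droplet-forming protein of the endoplasmic reticulum, at 1.75 times, and Elovl3, an elongase of saturated and monounsaturated chains, at 2.61 times. Elovl2, an elongase of polyunsaturated chains, was at 0.771 times its wild-type level. After ACAT2 ASO the members with the smallest p lay below their control ASO levels: Bscl2 (seipin, which shapes nascent droplets), the coat protein Plin3 and the droplet enzyme Hsd17b13. No member passed the adjusted threshold within a model (0 of 42 in each, limma), where 0.228% of all genes were called in the transgenic comparison and 0.597% in the ASO comparison. At an unadjusted p under 0.05 there were 7 members in the transgenic comparison (16.7%, against 10.9% of all genes), of which 5 were higher and 2 lower, and 5 in the ASO comparison (11.9%, against 13.3% of all genes), of which 1 was higher and 4 lower. In the transgenic comparison 29 of 42 members lay above 0 (69.0%, against 52.6% of all genes) and 13 below. The median change was 0.08 where the median over all genes was 0.01. In the ASO comparison 14 lay above 0 (33.3%, against 49.7% of all genes) and 28 below. The median there was -0.08 where that over all genes was -0.00056. Single arrays moved these medians: with wild type 1 left out the transgenic one was 0.13, and with wild type 3 left out 0.05, and the ASO one was -0.02 without ACAT2 ASO 1, -0.13 without ACAT2 ASO 2 and -0.03 without control ASO 1. The number of members above 0 ranged over 25 to 34 in the transgenic and over 9 to 19 in the ASO comparison when single arrays were left out. Without the 3 arrays that stood apart, the split was 25 above and 17 below in the transgenic comparison and 17 above and 25 below in the ASO comparison, again with 0 members called. At an unadjusted p under 0.05 there were then 6 members in the transgenic comparison (14.3%, against 12.6% of all genes; 3 higher and 3 lower) and 4 in the ASO comparison (9.52%, against 10.9%; 1 higher and 3 lower). They were not all the same genes. In the transgenic comparison Me1, Mgll and Plin3 dropped out, and Fads1 and Fads2, both lower, came in. G0s2 dropped out of the ASO comparison.

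**Figure D1:**
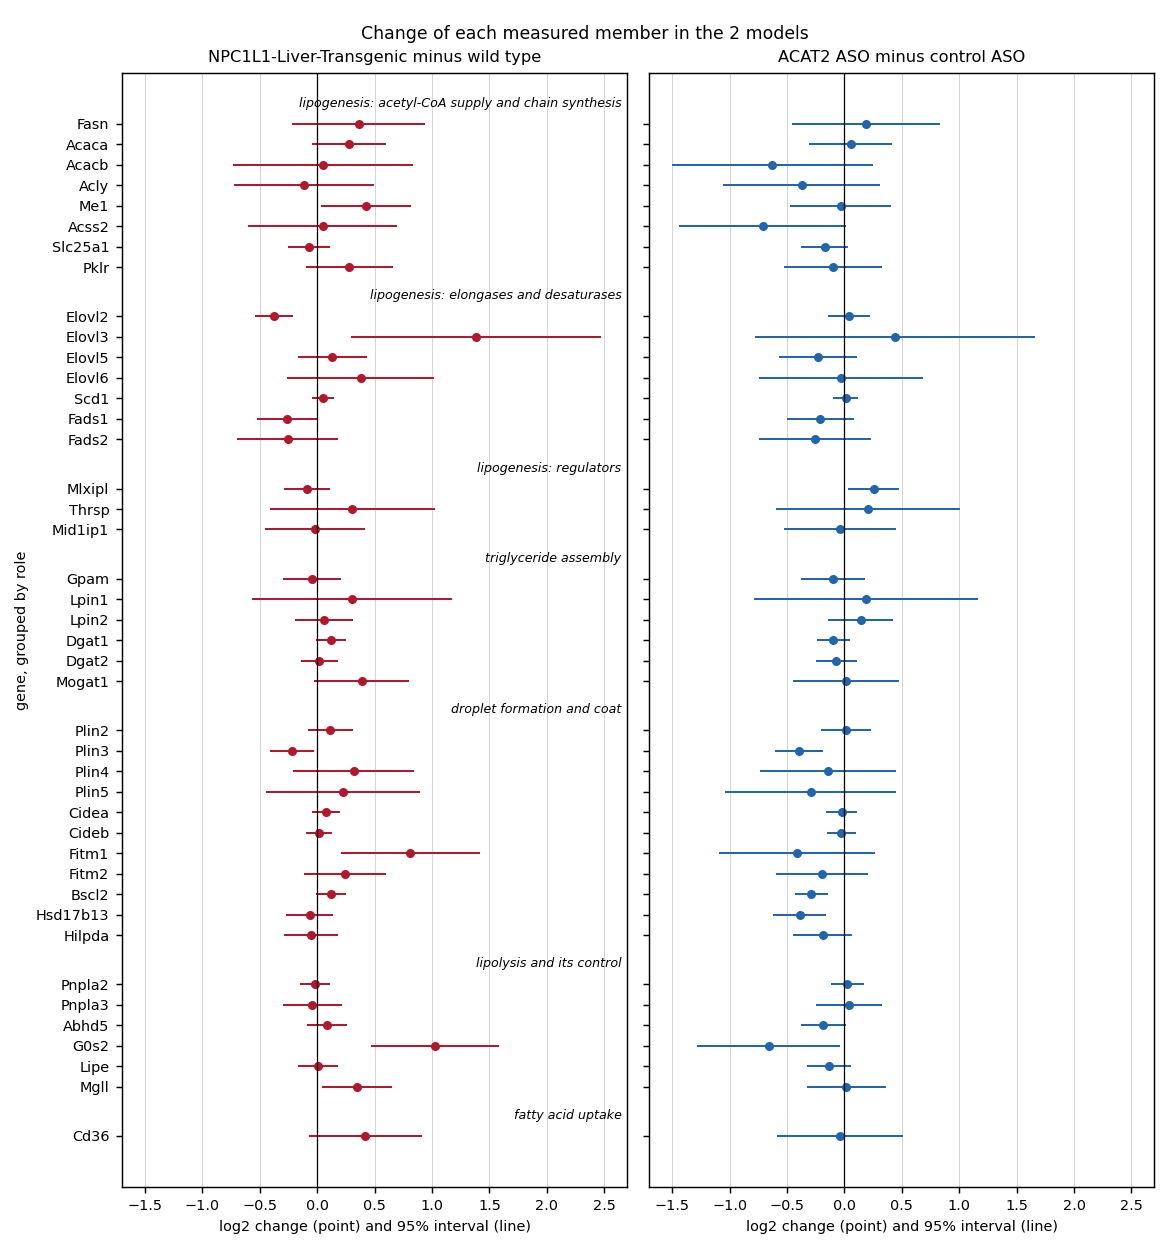
Log2 change of the 42 measured members in each model, grouped by role, with points at the estimate and bars at the 95% confidence interval of limma. The left panel is NPC1L1-Liver-Transgenic minus wild type (n = 5 each) and the right panel ACAT2 ASO minus control ASO (n = 4 each); most bars cross 0, and the droplet genes lie mostly right of 0 on the left and left of 0 on the right.

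Groups without overlap were found for 7 gene and comparison pairs. Every transgenic array lay above every wild-type array for 3 of 42 members (7.14%, against 1.42% of all genes), namely Elovl3, Fitm1 and Cd36. Every transgenic array lay below for 2, namely Elovl2 and Plin3 (4.76%, against 0.801%). For Cd36 the lowest transgenic value, 9.6906, lay barely above the highest wild-type value, 9.6894, and the unadjusted p in limma was 0.0906. Every ACAT2 ASO array lay above every control ASO array for 0 members, against 4.39% of all genes, and below for 2 (Bscl2 and Hsd17b13; 4.76%, against 4.67%). On the 15 arrays besides the 3 that stood apart, the transgenic counts were again 3 (7.14%, against 2.45% of all genes) and 2 (4.76%, against 1.61%), with the same genes, and the ASO counts were 1 higher (2.38%, against 9.35%) and 5 lower (11.9%, against 9.88%).

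The enzymes that supply acetyl-CoA and build the chain did not pass the test in either model. Of these 8 genes, 6 lay above 0 in the transgenic comparison (median change 0.16) and 2 after ACAT2 ASO (median -0.14), with 0 called in each, and without the 3 arrays that stood apart 6 and 3 did (medians 0.19 and -0.19). Fasn, the fatty acid synthase, averaged 10.31 ± 0.54 in transgenic livers and 9.95 ± 0.47 in wild-type livers (SD, n = 5 each). In the ASO model it averaged 8.87 ± 0.37 with ACAT2 ASO and 8.68 ± 0.48 with control ASO (SD, n = 4 each). Its change was 0.36 in the transgenic comparison (95% interval -0.22 to 0.94, adjusted p = 0.694) and 0.19 in the ASO comparison (95% interval -0.45 to 0.84, adjusted p = 0.861). Leaving out single arrays moved the Fasn change over 0.17 to 0.56 in the transgenic and over 0.012 to 0.387 in the ASO comparison. Neither interval excluded a change of 0, and both allowed changes of over 1.5-fold upward. Acaca, the carboxylase of the cytosol, had changes of 0.28 (SE 0.15) and 0.06 (SE 0.17) in the same comparisons. Me1, the malic enzyme that supplies NADPH, was the member of this role with an unadjusted p under 0.05 in transgenic livers, with 11.41 ± 0.25 against 10.99 ± 0.44 in wild-type livers (change 0.43, SE 0.19, adjusted p = 0.409) and a change of -0.03 (SE 0.21) after ACAT2 ASO.

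Acss2, which makes acetyl-CoA from acetate, had the lowest change of all members after ACAT2 ASO. Its level was 8.12, 8.64, 8.33 and 8.29 with ACAT2 ASO, against 10.00, 9.02, 8.42 and 8.79 with control ASO. The control ASO 1 array was the highest and the groups overlapped, so the change of -0.71 (SE 0.35) had an adjusted p of 0.387. In the other model Acss2 read 10.06, 10.40, 9.71, 10.60 and 10.18 in transgenic livers and 11.20, 10.48, 9.82, 9.89 and 9.32 in wild-type livers, a change of 0.05 (SE 0.31). The transgenic values all fell inside the wild-type range. Acacb, the carboxylase of the mitochondrial surface, showed the same pattern, with a change of -0.63 (SE 0.42, adjusted p = 0.56) after ACAT2 ASO and a control ASO 1 value of 8.83, where the other 3 control ASO arrays lay between 7.09 and 7.36. Acly, the citrate lyase, had changes of -0.12 (SE 0.29) in the transgenic and -0.37 (SE 0.32) in the ASO comparison, and Slc25a1, the mitochondrial citrate carrier, -0.07 (SE 0.09) and -0.17 (SE 0.10). Pklr, the liver pyruvate kinase, had changes of 0.28 (SE 0.18) and -0.10 (SE 0.20).

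The spread of this group between arrays was wide. Averaged over the 8 genes, the level ranged over 9.27 to 10.02 on transgenic arrays and 9.05 to 10.19 on wild-type arrays, and over 8.19 to 8.73 on ACAT2 ASO arrays and 8.35 to 9.21 on control ASO arrays. Wild type 1 and control ASO 1 were the highest arrays of their groups over all 18 lipogenesis genes, at 10.50 and 9.91.

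**Figure D2:**
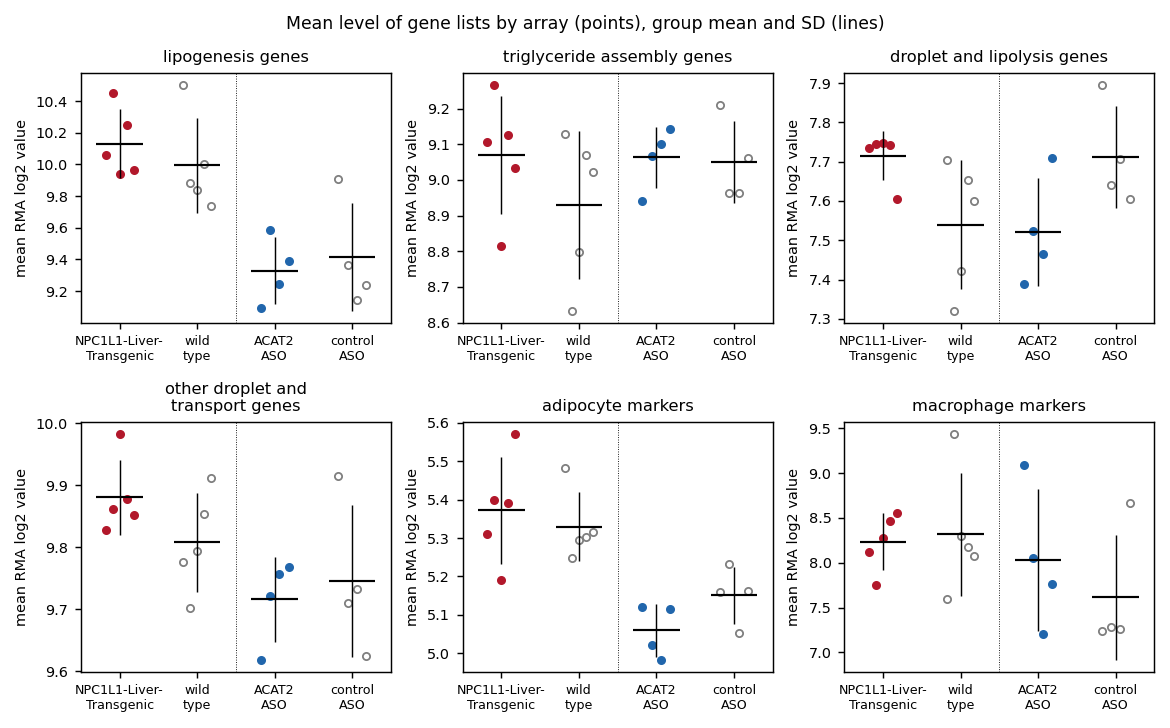
Mean log2 level per array of 6 gene lists, in 6 panels with 1 point per array, the group mean as a line and the SD as a bar, for NPC1L1-Liver-Transgenic, wild type, ACAT2 ASO and control ASO (n = 5, 5, 4 and 4). The droplet and lipolysis list lies between 7.60 and 7.75 on transgenic arrays and between 7.32 and 7.71 on wild-type arrays, and the macrophage list has 1 high array each in wild type, ACAT2 ASO and control ASO.

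Elongases and desaturases lay on both sides of 0. Of 7 genes, 4 lay above 0 in the transgenic comparison (median 0.05) and 3 after ACAT2 ASO (median -0.03), with 0 called in each. With the 3 arrays left out the counts above 0 were 4 in each (medians 0.06 and 0.02), so the ASO median changed sign. Elovl2, which lengthens polyunsaturated chains toward docosahexaenoic acid, read 11.49, 11.12, 11.28, 11.25 and 11.42 in transgenic livers and 11.92, 11.57, 11.63, 11.71 and 11.61 in wild-type livers. All 5 transgenic values lay below all 5 wild-type values. The change was -0.38 (SE 0.08, 95% interval -0.54 to -0.21) with an adjusted p of 0.0631 in limma, and over 30 alternatives this p ranged over 0.0409 to 0.192, under 0.05 without transgenic 1 (0.0409) and with a trended and robust variance (0.0486). In the ASO model Elovl2 read 11.16, 11.20, 11.18 and 11.07 with ACAT2 ASO, against 11.19, 10.96, 11.24 and 11.04 with control ASO, with overlapping groups and a change of 0.04 (SE 0.09, adjusted p = 0.892).

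Elovl3 had the largest change of any member in the transgenic comparison and also one of the largest spreads. It read 6.94, 7.88, 7.48, 6.22 and 6.01 in transgenic livers and 5.73, 4.87, 5.31, 5.95 and 5.76 in wild-type livers. The groups did not overlap, though transgenic 5 lay just above wild type 4, and the change of 1.38 (SE 0.52, 95% interval 0.29 to 2.48) had an adjusted p of 0.325. After ACAT2 ASO it read 7.39, 6.95, 5.34 and 7.42, against 7.90, 5.36, 5.12 and 6.95 after control ASO, a change of 0.44 (SE 0.58, adjusted p = 0.821). In both ASO groups the arrays were spread widely, with SDs of 0.98 for ACAT2 ASO and 1.32 for control ASO.

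Elovl6, which extends palmitate, had a change of 0.38 (SE 0.30) in the transgenic and -0.03 (SE 0.34) in the ASO comparison, and Elovl5, an elongase of polyunsaturated chains, 0.13 (SE 0.14) and -0.23 (SE 0.16). Fads1 and Fads2, the delta-5 and delta-6 desaturases, lay below 0 in both models, at -0.26 (SE 0.12) and -0.26 (SE 0.21) in transgenic livers and at -0.21 (SE 0.14) and -0.26 (SE 0.23) after ACAT2 ASO. Scd1, the stearoyl-CoA desaturase that makes oleate, was measured at 13.41 ± 0.03 in transgenic and 13.36 ± 0.06 in wild-type livers (SD, n = 5 each), and at 13.29 ± 0.08 with ACAT2 ASO and 13.28 ± 0.09 with control ASO (SD, n = 4 each). These values lie close to the highest on an array, and a further Scd1 probe set with a mean of 10.6 gave changes of 0.15 (SE 0.20) and 0.04 (SE 0.22).

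Among the regulators, Mlxipl encodes ChREBP, the carbohydrate-responsive factor. It read 9.80, 10.08, 10.14 and 10.08 with ACAT2 ASO, against 9.80, 9.84, 10.04 and 9.41 with control ASO. In the other model it read 9.90, 9.93, 10.04, 9.91 and 9.83 in transgenic livers and 9.85, 10.14, 10.06, 9.93 and 10.07 in wild-type livers. Both pairs of groups overlapped. The changes were 0.25 (SE 0.11, adjusted p = 0.305) after ACAT2 ASO and -0.09 (SE 0.10, adjusted p = 0.807) in transgenic livers. Thrsp, the insulin- and thyroid hormone-responsive Spot 14, had changes of 0.31 (SE 0.34) in the transgenic and 0.21 (SE 0.38) in the ASO comparison, and Mid1ip1, its relative that activates acetyl-CoA carboxylase, -0.02 (SE 0.21) and -0.04 (SE 0.23).

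Genes of triglyceride assembly had changes between -0.05 and 0.39 in transgenic livers and between -0.10 and 0.19 after ACAT2 ASO. Of 6 genes, 5 lay above 0 in the transgenic comparison (median 0.09) and 3 after ACAT2 ASO (median -0.03), with 0 called and 0 at an unadjusted p under 0.05 in either model. These counts were 3 and 4 without the 3 arrays. Dgat1, an acyltransferase of the last step, read 7.05, 7.07, 7.28, 7.27 and 7.12 in transgenic livers and 7.09, 6.98, 7.02, 7.09 and 7.02 in wild-type livers, and 6.89, 7.17, 7.11 and 7.23 with ACAT2 ASO, against 7.21, 7.20, 7.23 and 7.14 with control ASO. Values overlapped in both models, and the changes were 0.12 (SE 0.06, adjusted p = 0.503) and -0.10 (SE 0.07, adjusted p = 0.604). Dgat2, the other enzyme of that step, was among the most tightly measured, with changes of 0.02 (95% interval -0.14 to 0.18) in the transgenic and -0.07 (95% interval -0.25 to 0.11) in the ASO comparison. Gpam, the mitochondrial acyltransferase of the first step, had changes of -0.05 (SE 0.12) and -0.10 (SE 0.13). Lpin1, a phosphatidate phosphatase, varied far more than its relative Lpin2, with SDs of 0.99 against 0.25 in transgenic livers and of 0.75 against 0.26 in wild-type livers. Mogat1, which acylates monoacylglycerol, read 5.23 ± 0.35 in transgenic and 4.84 ± 0.21 in wild-type livers (change 0.39, SE 0.20, adjusted p = 0.498).

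Droplet formation and coat genes lay mostly above 0 in transgenic livers and mostly below 0 after ACAT2 ASO. Of 11 measured genes, 8 lay above 0 in the transgenic comparison (median change 0.11) and 1 after ACAT2 ASO (median change -0.20), with 0 called in each. Without the 3 arrays that stood apart, 7 lay above 0 in the transgenic comparison (median 0.08) and 1 after ACAT2 ASO (median -0.23). Plin2, the coat protein that is present on most hepatocyte droplets, averaged 11.58 ± 0.14 in transgenic and 11.47 ± 0.09 in wild-type livers (SD, n = 5 each), and 11.52 ± 0.21 with ACAT2 ASO and 11.51 ± 0.17 with control ASO (SD, n = 4 each). Its changes were 0.11 (95% interval -0.08 to 0.31) and 0.01 (95% interval -0.20 to 0.23).

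Fitm1, one of the pair of fat storage-inducing transmembrane proteins, read 8.48, 8.62, 8.67, 8.49 and 8.43 in transgenic livers and 7.60, 7.23, 7.50, 8.06 and 8.26 in wild-type livers. The transgenic values were tightly grouped and all above the wild-type values, with SDs of 0.10 and 0.42. The change was 0.81 (SE 0.29, 95% interval 0.20 to 1.41, adjusted p = 0.298). After ACAT2 ASO Fitm1 read 6.23, 7.37, 6.03 and 6.52, against 8.04, 6.84, 6.38 and 6.55 after control ASO, with overlapping groups and a change of -0.41 (SE 0.32, adjusted p = 0.641). Fitm2, the more widely expressed of the pair, had changes of 0.24 (SE 0.17) in the transgenic and -0.20 (SE 0.19) in the ASO comparison.

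Bscl2 read 6.48, 6.50, 6.49 and 6.62 with ACAT2 ASO, against 6.84, 6.82, 6.85 and 6.73 with control ASO. The highest ACAT2 ASO value stayed below the lowest control ASO value, and the change was -0.29 (SE 0.07, 95% interval -0.43 to -0.15) with an adjusted p of 0.0627 in limma. Over 30 alternatives this p ranged over 0.0195 to 0.209, under 0.05 without wild type 4 (0.0195), which enters through the shared spread, and with array weights (0.0255). In the other model Bscl2 read 7.12, 7.13, 7.23, 7.05 and 7.15 in transgenic and 7.01, 6.88, 6.91, 7.26 and 7.02 in wild-type livers, with wild type 4 above all transgenic arrays and a change of 0.12 (SE 0.06, adjusted p = 0.513).

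Plin3, a coat protein that moves between cytosol and droplets, had a change below 0 in both models. It read 8.16, 8.22, 8.13, 8.21 and 8.19 in transgenic livers and 8.36, 8.53, 8.51, 8.31 and 8.31 in wild-type livers, without overlap (change -0.22, SE 0.09, adjusted p = 0.37). After ACAT2 ASO it read 6.95, 7.44, 6.80 and 7.17, against 7.57, 7.51, 7.49 and 7.37 after control ASO. ACAT2 ASO 2 lay above the lowest control ASO array, and the change of -0.40 (SE 0.10) had an adjusted p of 0.0788 in limma. Over 30 alternatives this p ranged over 0.0049 to 0.239, under 0.05 without ACAT2 ASO 2 (0.0049) and with array weights (0.0277).

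Hsd17b13, a droplet enzyme of hepatocytes, read 10.94, 11.26, 11.20 and 11.21 with ACAT2 ASO, against 11.62, 11.65, 11.59 and 11.32 with control ASO. All ACAT2 ASO values were below all control ASO values, and the change of -0.39 (SE 0.11) had an adjusted p of 0.107. That p ranged over 0.0288 to 0.593 in 30 alternatives; it was 0.0288 with array weights and 0.593, with a change of -0.10, when the 2 probe sets were averaged, since the other probe set, with a mean of 3.91, had a change of 0.19. In transgenic livers it read 11.01, 11.00, 10.94, 11.18 and 10.92, against 11.09, 10.83, 11.41, 11.12 and 10.93 in wild-type livers, with overlap and a change of -0.07 (SE 0.10). The remaining droplet genes had changes in the transgenic and the ASO comparison of 0.32 and -0.14 for Plin4, 0.23 and -0.29 for Plin5, which ties droplets to mitochondria, 0.02 and -0.03 for Cideb, which serves droplet fusion and lipoprotein lipidation, and -0.05 and -0.19 for Hilpda, a lipase inhibitor. Cidea, a droplet fusion protein of brown fat, had a mean level below 4.74, a level that the lowest 40% of genes did not reach, and changes of 0.08 and -0.02.

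**Figure D3:**
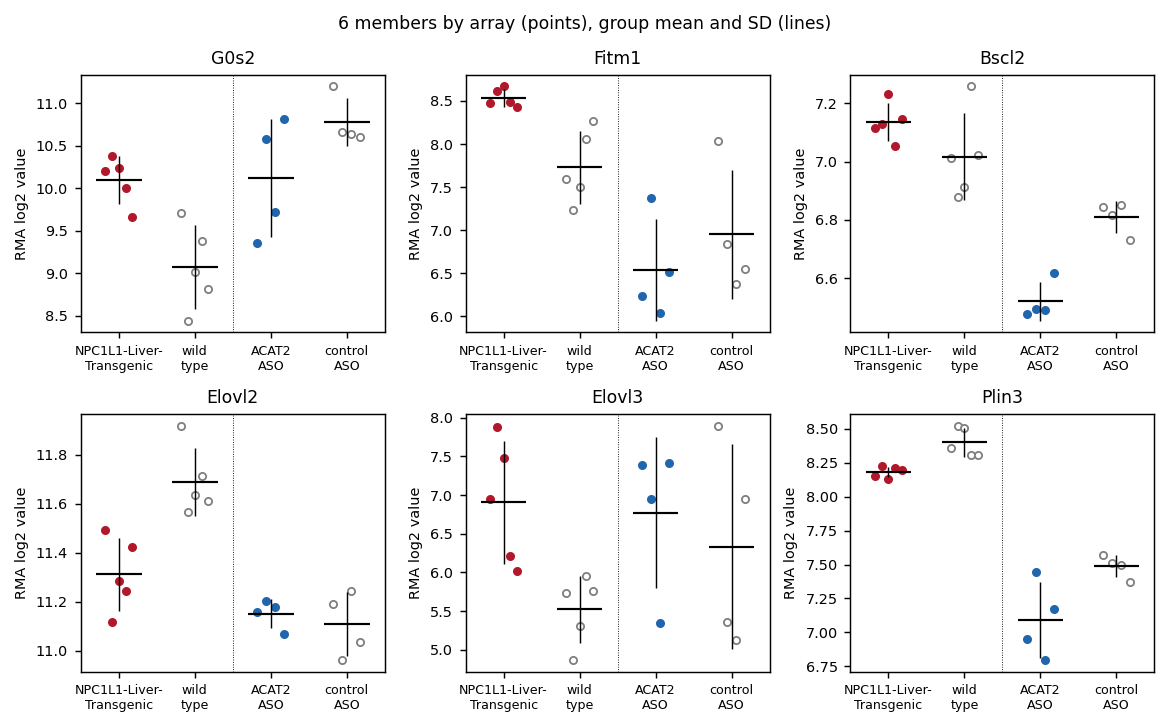
Log2 level by array of Fitm1, Bscl2, Plin3, G0s2, Elovl2 and Elovl3, 1 panel per gene, with 1 point per array, the group mean as a line and the SD as a bar, for NPC1L1-Liver-Transgenic, wild type, ACAT2 ASO and control ASO (n = 5, 5, 4 and 4). Transgenic values lie above all wild-type values for Fitm1 and Elovl3 and below them for Elovl2 and Plin3, and ACAT2 ASO values lie below all control ASO values for Bscl2.

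Of the 6 genes of lipolysis and its control, 4 lay above 0 in the transgenic comparison (median 0.05) and 3 after ACAT2 ASO (median -0.06), with 0 called in each. On the 15 arrays besides those that stood apart, 3 and 2 lay above 0 (medians 0.05 and -0.06). G0s2, whose protein binds and inhibits adipose triglyceride lipase, read 10.21, 10.37, 10.24, 10.00 and 9.66 in transgenic livers and 9.71, 8.44, 9.02, 9.37 and 8.82 in wild-type livers. Only transgenic 5 and wild type 1 overlapped, and the change was 1.02 (SE 0.26, 95% interval 0.47 to 1.58, adjusted p = 0.123). After ACAT2 ASO it read 9.36, 10.58, 9.72 and 10.82, against 11.20, 10.66, 10.64 and 10.61 after control ASO. ACAT2 ASO 1 and 3 were the low arrays, ACAT2 ASO 4 exceeded 3 control ASO arrays, and the change was -0.66 (SE 0.30, adjusted p = 0.344). Leaving out single arrays moved that change over -0.89 to -0.40.

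Mgll, the monoacylglycerol lipase that completes hydrolysis, read 9.81, 9.84, 10.02, 9.69 and 9.56 in transgenic livers and 9.68, 8.89, 9.26, 9.81 and 9.55 in wild-type livers. The groups overlapped, the change was 0.35 (SE 0.14, adjusted p = 0.382), and its 3 further probe sets had changes of 0.11, 0.45 and 0.16. After ACAT2 ASO Mgll read 10.03, 10.10, 10.22 and 10.51, against 10.29, 10.05, 10.34 and 10.11 after control ASO, a change of 0.02 (SE 0.16). Abhd5, the activator of adipose triglyceride lipase, had changes of 0.09 (SE 0.08) in the transgenic and -0.18 (SE 0.09) in the ASO comparison. Lipe, the hormone-sensitive lipase, had changes of 0.01 (SE 0.08) and -0.13 (SE 0.09), and Pnpla3, a droplet lipase relative, of -0.04 (SE 0.12) and 0.04 (SE 0.14). Pnpla2, which encodes adipose triglyceride lipase itself, was the other member with a mean below 4.74, with changes of -0.02 (SE 0.06) and 0.02 (SE 0.07). Cd36, the fatty acid translocase, read between 9.69 and 10.27 in transgenic and between 9.23 and 9.69 in wild-type livers (change 0.42, SE 0.23, adjusted p = 0.549), and its 2 further probe sets had changes of 0.45 and 0.61. After ACAT2 ASO its change was -0.04 (SE 0.26).

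The difference between the 2 models, transgenic effect minus ASO effect, was tested in the same fit, in which the models share no arrays. Over all genes 1.07% were called, and 1 of the 42 members, Bscl2, was called, with a difference of 0.41 (SE 0.09, 95% interval 0.21 to 0.60, adjusted p = 0.0440). G0s2 had the largest difference, 1.68 (SE 0.40, 95% interval 0.85 to 2.52), at an adjusted p of 0.0504, followed by Fitm1 at 1.22 (SE 0.43, adjusted p = 0.176). Elovl2 differed the other way, at -0.42 (SE 0.12, adjusted p = 0.0929). At an unadjusted p under 0.05 there were 8 members (19.0%, against 15.4% of all genes): Bscl2, G0s2, Fitm1, Dgat1, Hsd17b13 and Abhd5 with positive and Elovl2 and Mlxipl with negative differences.

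By sign, 35 of the 42 members had a positive difference (83.3%, against 52.0% of all genes) and 7 a negative one. The median difference was 0.20 where that over all genes was 0.01. The median was 0.11 without control ASO 1, and the positive count ranged over 30 to 37 without single arrays. All 11 droplet genes (median 0.33) and all 8 genes of acetyl-CoA supply and chain synthesis (median 0.32) were positive. Without the 3 arrays these were again 11 of 11 (median 0.27) and 8 of 8 (median 0.36). Neither count held throughout when single arrays were left out. The difference of Fasn, 0.17 in the main fit, turned below 0 without control ASO 1 and without transgenic 2. That of the droplet gene Hilpda, 0.14 in the main fit, did so without control ASO 4. Above 0 in transgenic livers and below 0 after ACAT2 ASO were 19 members (45.2%, against 29.2% of all genes), and 4 had the opposite pattern (9.52%, against 26.3%). With the 3 arrays that stood apart left out, the first pattern was held by 13 members (31.0%, against 28.1% of all genes) and the opposite one by 5 (11.9%, against 26.0%). A further 10 lay above 0 in both models, and 9 lay below in both, Plin3, Fads1 and Fads2 among them. The call for Bscl2 held in 6 of 29 alternatives, where its adjusted p ranged over 0.00674 to 0.167. Without the 3 arrays that stood apart, 32 differences were positive and 10 negative, 7 members had an unadjusted p under 0.05 (16.7%, against 13.6% of all genes), 0 were called, and the differences were 0.38 for Bscl2 (adjusted p = 0.107) and 1.33 for G0s2 (adjusted p = 0.118), whose p ranged over 0.0364 to 0.151 in 29 alternatives.

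**Figure D4:**
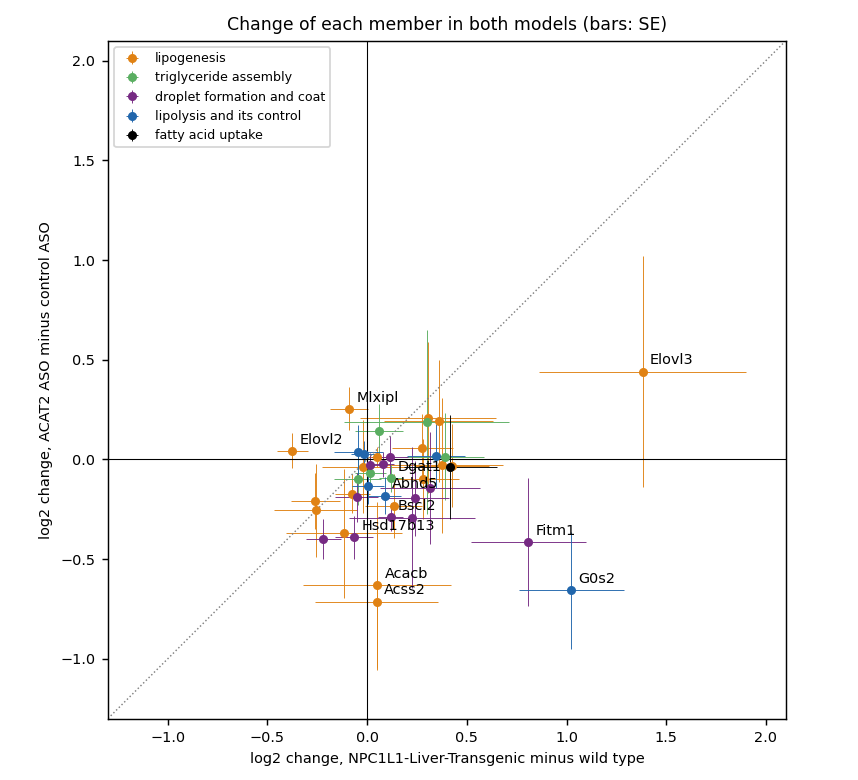
Log2 change in transgenic livers (transgenic minus wild type, horizontal axis) against log2 change after ACAT2 ASO (ACAT2 ASO minus control ASO, vertical axis) for the 42 members, coloured by role, with bars of 1 SE and a dotted line of equal change. Of the points, 19 lie right of 0 and below 0, and G0s2, at 1.02 and -0.66, lies farthest in that quadrant.

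Further probe sets gave a check within the arrays. Of the 42 members, 23 had 30 probe sets besides the one used, and 24 of these 30 had the same sign of change in the transgenic comparison, 24 in the ASO comparison and 22 in the difference. Among the 25 with a mean above 4.74, the sign was the same for 20 in each of the 3. G0s2, Fitm1, Bscl2, Elovl2, Elovl3 and Plin3 were each measured by 1 probe set, so this check does not reach them.

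Other genes of the same pathways were followed as a list of 81, of which 69 were measured. None was called in the transgenic comparison (0 of 69), where 45 lay above 0 (65.2%, against 52.6% of all genes) and 24 below. After ACAT2 ASO 1 was called, with 28 above 0 (40.6%, against 49.7% of all genes) and 41 below. At an unadjusted p under 0.05 there were 5 in the transgenic comparison (7.25%, against 10.9% of all genes), 12 in the ASO comparison (17.4%, against 13.3%; 2 higher and 10 lower) and 11 in the difference (15.9%, against 15.4%). The gene called after ACAT2 ASO was Agpat3, an acyltransferase that makes phosphatidic acid, which read 8.03, 8.04, 8.09 and 8.13 with ACAT2 ASO, against 8.43, 8.25, 8.39 and 8.35 with control ASO. The groups did not overlap, and the level fell by 0.29 on the log2 scale after ACAT2 ASO (SE 0.06, adjusted p = 0.0307). In transgenic livers Agpat3 read 8.68, 8.61, 8.64, 8.55 and 8.61, against 8.67, 8.40, 8.48, 8.60 and 8.45 in wild-type livers, a change of 0.10 (SE 0.05, adjusted p = 0.531). The difference between the models was 0.38 (SE 0.08, adjusted p = 0.0269), the 1 call in this list. Over the alternatives the ASO adjusted p ranged over 0.016 to 0.126 and that of the difference over 0.015 to 0.107, and without the 3 arrays that stood apart both missed the threshold (0.126 and 0.103).

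Among the remaining genes of that list with the smallest p, Gpd1, which supplies glycerol phosphate, had a change of 0.38 (adjusted p = 0.362) and Hsd17b12, a reductase of chain elongation, 0.22 (adjusted p = 0.339) in transgenic livers. After ACAT2 ASO, Ces1f, a liver carboxylesterase, had a change of -0.45 (adjusted p = 0.0914), Tecr, another elongation reductase, -0.35 (adjusted p = 0.14), Hacd1, an elongation dehydratase, 0.35 (adjusted p = 0.171), and Tm6sf2, which serves lipoprotein lipidation, -0.25 (adjusted p = 0.174). Srebf2, the sterol-responsive factor of cholesterol synthesis, had changes of 0.02 in transgenic livers and 0.10 after ACAT2 ASO (adjusted p = 0.43). In the list of other droplet, lipase and fatty acid transport genes, 14 of 15 lay above 0 in the transgenic comparison. That share was 93.3%, against 52.6% of all genes, with a median change of 0.07 and 0 called. The 1 gene of this list with an unadjusted p under 0.05 there was lower (6.67%, against 10.9% of all genes). The mean level of the list overlapped, with 9.83 to 9.98 on transgenic and 9.70 to 9.91 on wild-type arrays. After ACAT2 ASO 8 of these 15 lay above 0. The list was the most one-sided in the transgenic comparison among the lists of other pathway genes. The rest had 8 of 16 (regulators) and 9 of 11 (glycolytic and NADPH supply) above 0 there. They also had 5 of 11 (elongation, desaturation and activation) and 9 of 16 (glycerolipid and lipoprotein assembly).

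Several members are also abundant in adipocytes and macrophages, and fewer cells of a type and less RNA per cell cannot be told apart in these bulk samples. Of 6 measured adipocyte markers, 3 lay above 0 in the transgenic comparison and 2 after ACAT2 ASO. Their mean level ranged over 5.19 to 5.57 on transgenic and 5.25 to 5.48 on wild-type arrays, and over 4.98 to 5.12 on ACAT2 ASO and 5.05 to 5.23 on control ASO arrays. Adipoq, the adipocyte hormone, averaged 4.17 in transgenic and 3.86 in wild-type livers, and 3.83 with ACAT2 ASO and 4.06 with control ASO, all under the 4.74 that bounds the lowest 40% of genes. Lep, another of these markers and also under 4.74, went the other way. It read 3.30 to 3.41 in transgenic and 3.47 to 3.51 in wild-type livers. With ACAT2 ASO it read 3.25 to 3.46, against 3.18 to 3.26 with control ASO. At an unadjusted p under 0.05, 1 adipocyte marker was lower in transgenic livers (16.7%, against 10.9% of all genes). By the same measure 1 was higher after ACAT2 ASO (16.7%, against 13.3%). All 8 macrophage and Kupffer cell markers lay above 0 after ACAT2 ASO, with a median change of 0.44 and 0 called, and their mean level ranged over 7.20 to 9.09 on ACAT2 ASO and 7.24 to 8.66 on control ASO arrays. In the transgenic comparison 4 of the 8 lay above 0, with 7.76 to 8.55 on transgenic and 7.60 to 9.44 on wild-type arrays. The part of these cells in the members' values was not tested, beyond the counts without the 3 arrays given above. Sinusoidal endothelial, stellate and pancreatic acinar markers had 0 calls in either model. At an unadjusted p under 0.05 in transgenic livers, 1 of 7 acinar markers was higher (14.3%, against 10.9% of all genes). There 1 of 8 endothelial, 1 of 8 stellate and 1 of 8 hepatocyte markers were lower (12.5% each). Changes of the acinar markers ranged over -0.26 to 1.15 in that comparison, with 2 above 0 and 5 below. At the same unadjusted threshold, 1 of 7 acinar markers was lower after ACAT2 ASO (14.3%, against 13.3% of all genes). There 1 of 8 macrophage markers was higher (12.5%).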

How the data were processed

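Liver RNA was extracted with Trizol, amplified from 250 ng and given its label with an Affymetrix 3′-IVT kit, per the labels' protocols. The authors deposited log2 values, 1 per probe set, made with RMA according to the submitters' processing notes; its version is not given in the sources used here. Medians per array were 4.61 to 4.65 for transgenic and wild-type samples and 4.38 to 4.40 for the ASO samples, so levels were compared within a model only, and never between probe sets. No pair of arrays was identical (0 pairs). The number of arrays limits the precision.

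Of 45141 probe sets per array, 104 controls were left out; per the platform annotation, 28898 had 1 symbol, 551 several and 15588 none. The mouse gene table held 28689 of the 28898, with 0 changes of symbol. The probe set with the highest mean stood for its gene, with no filter on low values. limma 3.58.1 (R 4.3.3) fitted 4 group means over 18 arrays with lmFit and eBayes. Transgenic was set against wild type and ACAT2 ASO against control ASO, and the 2 effects against each other, all two-sided, with Benjamini-Hochberg adjustment over 17097 genes. The fit was tested on simulated data. Figures were drawn with matplotlib 3.10.9.

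The members and lists were chosen with earlier results of these data known. All 18 values were written out for called members and for up to 6 with the smallest p per comparison; genes of other lists were named where called or among the 2 of a list with the smallest p. Alternatives covered the low-value filter, array scaling, probe set choice, samples in the fit, variance model, array weights, replicate block, call threshold and leaving out each array. Leaving out the 3 arrays that stood apart was chosen after seeing the data.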

Additional observations from a re-analysis of the deposited data

Results flagged for a closer look

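Single arrays lay far from the rest of their group for 10 of 168 member and group combinations, judged by the gap to the nearest array over the group's range; chance alone gives about 1 in 20. Control ASO 1 was high for 3 members: G0s2 at 11.20 (the others lay between 10.61 and 10.66), Acacb at 8.83 (7.09 to 7.36) and Mogat1 at 5.50 (4.64 to 4.79). Control ASO 4 was high for Hilpda at 5.22 (4.56 to 4.67). ACAT2 ASO 1 was low for Fads2 at 9.41 (10.18 to 10.29), and ACAT2 ASO 4 was high for Bscl2 at 6.62 (6.48 to 6.50). Transgenic 3 was low for Lpin1 at 7.96 (9.91 to 10.28). In wild-type livers, array 1 was high for Acaca at 9.04 (8.50 to 8.64), array 5 high for Pnpla2 at 4.20 (3.90 to 3.98) and array 3 low for Abhd5 at 6.84 (7.16 to 7.28).

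The limma test of the difference itself called Bscl2 (transgenic effect minus ASO effect 0.41, adjusted p = 0.0440) and Agpat3 (0.38, adjusted p = 0.0269). Of 29 alternatives, the Bscl2 call held in 6 and the Agpat3 call in 18. Without the 3 arrays that stood apart both were lost (adjusted p = 0.107 and 0.103).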

How the results depend on the processing

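No member with an unadjusted p under 0.05 changed sign in any alternative. Calls over all genes were 39 (transgenic), 102 (ASO) and 183 (difference). In that order they were 2, 18 and 12 with the replicate number as a block, 8, 29 and 42 with a 1.5-fold minimum, 17, 26 and 28 at an adjusted p under 0.01, and 20 to 58, 42 to 203 and 69 to 262 when single arrays were left out. Fits on a model's own arrays gave 13 and 17. Array weights gave 465 (ASO) and 369 (difference). Centring gave 112 and quantile normalization 102 for the difference, and leaving out the 3 arrays that stood apart gave 46 (ASO) and 58 (difference). Among the members, calls in the transgenic comparison were 1 with a trended and robust variance (Elovl2) and 0 to 1 without single arrays. In the ASO comparison they were 3 with array weights (Plin3, Bscl2 and Hsd17b13) and 0 to 1 without single arrays. In the difference they were 2 without low genes (Bscl2 and G0s2), 0 under centring, quantile normalization, a trended variance, the block, the 1.5-fold minimum, the stricter threshold or without the 3 arrays, and 0 to 1 without single arrays. Bscl2 stayed called only without wild type 4 or control ASO 4 among these; G0s2 was called without wild type 1, transgenic 5, ACAT2 ASO 2 or ACAT2 ASO 4. Leaving out a single array turned the sign of up to 6 members in the transgenic, 6 in the ASO and 5 in the difference comparison, none with an unadjusted p under 0.05 there and none with a change above 0.23 in size. Scd1 and Plin2 after ACAT2 ASO were among them, at -0.029 to 0.049 and -0.065 to 0.094. The cause of these shifts was not tested.

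The labels do not state that shared replicate numbers pair the samples. Between arrays of the same number, deviations from the group means correlated between -0.48 and 0.17 in the transgenic model. In the ASO model they correlated between -0.48 and 0.47. Arrays of unlike numbers were not compared, so these values cannot show whether the samples were paired. Under the block the difference for Bscl2 was 0.41 at an adjusted p of 0.167.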
